A study of Arabidopsis thaliana with 8 samples.

Results

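The genes described here are 68 Arabidopsis genes of modest signal whose intensity was higher in every red-light sample than in any white-light sample. The plants were Arabidopsis thaliana, wild type, in the laboratory background Landsberg, kept for 48 h in red light or for 48 h in white light. Both lights were given at 20 µE, a measure of photon flux. Each light condition had 4 samples of total RNA, numbered 1 to 4 in the labels, and no mutant, chemical or other agent is named. The labels give neither the tissue nor the age of the plants, so that the tissue could not be checked against its markers, and they do not say whether samples came from separate plants or cultures. Each sample has 1 value for each of 3439 probes, an intensity in arbitrary units.

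Red light is absorbed in plants mainly by the phytochromes, which act on the transcription of nuclear genes, and by chlorophyll. White light also contains blue light, which is read by cryptochromes and phototropins. Many nuclear genes that respond to light encode proteins imported into the plastid, where they serve photosynthesis, fatty acid synthesis, and the transcription and translation of the plastid's own genes.

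Members were chosen by measured values. A member has a probe paired with exactly 1 gene, a mean deposited intensity over the 8 samples above 0.15 and below 2, a lowest red value above the highest white value after quantile normalization of the 8 columns, and a mean red intensity of 1.5 or more times the mean white intensity. In the platform annotation 692 of the 3439 probes have 1 gene, 870 have several and 1877 have none, and the 692 stand for 691 distinct genes, of which the members are 68. Of the 692 probes, 463 lay in the intensity window and 75 of these met the contrast, or 16.2%, against 76 that met it in the opposite direction, or 16.4%. Of the 75, TCP15, AGL54, HEMA3 and AT1G78620 were left out by name. AT4G04370, AT2G46050 and AT1G64430 were left out as genes of the pentatricopeptide repeat family, a judgement from general knowledge that is less certain for AT1G64430, since the gene tables used here carry no family names. The red over white contrast of the members is thus a description without a test. Because the share that lay in the opposite direction was about as large, the number of members says nothing particular about red light.

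**Figure D1:**
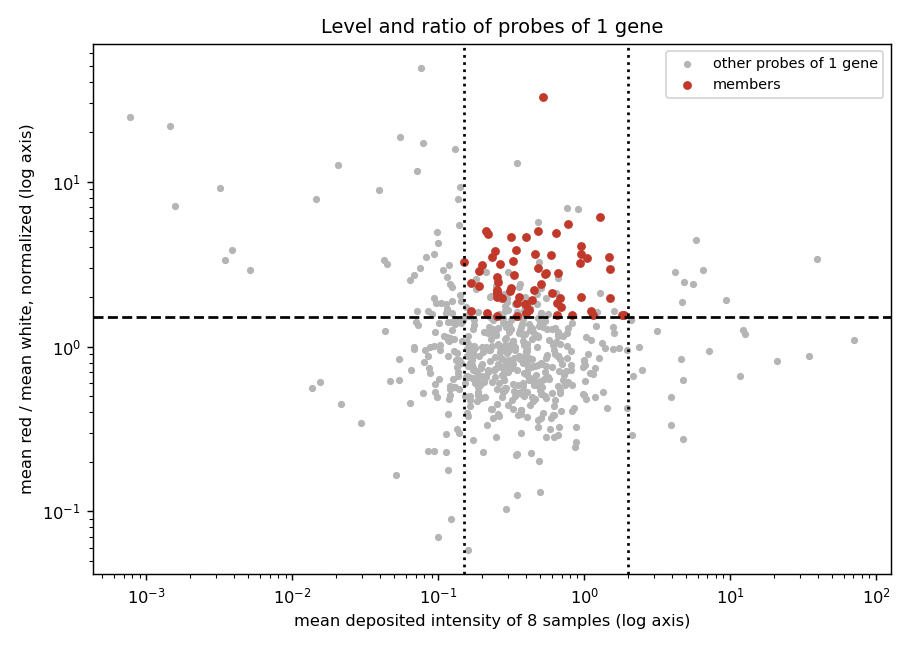
Mean deposited intensity of the 8 samples (x axis, arbitrary units, log axis) against the ratio of mean red to mean white normalized intensity (y axis, log axis) for probes of 1 gene, each point 1 probe, with the 68 members in red. Dotted lines mark the intensity window of 0.15 to 2 and the dashed line the ratio of 1.5. Probes with a group mean of 0 are not drawn, and grey points inside the window and above the line are genes left out or genes whose red and white samples overlap.

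The values near the limits of the rule are as follows. The lowest ratios among members were 1.53 for AT5G05400, which encodes a protein of the nucleotide-binding, leucine-rich repeat family of immune receptors, and 1.53 for AT5G03370, an acylphosphatase. AT5G05400 had normalized intensities of 0.454, 0.531, 0.327 and 0.347 in red samples 1 to 4 and of 0.224, 0.246, 0.314 and 0.303 in white samples 1 to 4. AT5G03370 had normalized intensities of 0.308, 0.259, 0.315 and 0.304 in red samples 1 to 4 and of 0.188, 0.147, 0.209 and 0.231 in white samples 1 to 4. In both genes the lowest red value lay close above the highest white value. The nearest genes outside with separate groups were AT2G46850, with a ratio of 1.40, and AT5G48830, with 1.39. AT2G46850 had normalized intensities of 0.587, 0.576, 0.607 and 0.596 in red samples 1 to 4 and of 0.518, 0.544, 0.315 and 0.310 in white samples 1 to 4. Its white samples 3 and 4 were low and its white samples 1 and 2 nearly reached the red values. AT5G48830 had normalized intensities of 0.412, 0.328, 0.281 and 0.285 in red samples 1 to 4 and of 0.213, 0.233, 0.258 and 0.233 in white samples 1 to 4. Another 43 genes in the window passed the ratio of 1.5 but had overlapping groups. At the lower edge of the window, AT5G40470 was inside with a mean deposited intensity of 0.15, and AT4G15790 was outside with 0.141. At the upper edge AT2G39360, a receptor-like kinase gene, was inside with 1.88. Among genes that met the contrast and were not left out, AT4G29890 was the next above, with 4.22.

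Most members were dim. The median of their mean deposited intensities was 0.407, with 41 of the 68 members under 0.5 and 9 over 1, on a scale that ends at 100. Their ratios of mean red to mean white normalized intensity had a median of 2.36. The ratio was 2 or more for 44 members, 3 or more for 23 and 4 or more for 10. On the log2 scale, with values below a common floor of 0.0716 raised to it, the fold changes ran from 0.60 to 3.25 with a median of 1.21, beside a median of -0.03 over the 3032 probes fitted. The gap between the lowest red and the highest white value was a factor of 2 or more for 13 members and under 1.1 for 10. No member had a red sample at the floor, and 10 had 1 or more white samples there, so that their fold changes depend on the floor.

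Before any comparison, the samples fell into pairs within each light, samples 1 and 2 and samples 3 and 4. Deviations from the group mean, correlated across all fitted probes, had coefficients of 0.334 to 0.470 inside a pair and of -0.723 to -0.671 across pairs of 1 light, and the labels name no batch. In a limma fit across all probes, with Benjamini-Hochberg adjusted p under 0.05, 57 of the 68 members were called higher in red, beside 11.0% of the 3032 probes. With the replicate number as a block 58 were called, beside 12.7% of the probes, and with each pair as a random block 14 were called, beside 2.34%. Since the rule used the same contrast, these counts describe the members and support nothing. The 14 were AT1G06730, AT5G40030, AT2G31920, AT3G02690, AT5G38310, AT1G13370, AT1G50390, AT4G27510, AT4G22190, AT2G44760, AT4G13550, AT3G16310, AT3G57120 and AT1G17160. The 11 members not called without a block were AT4G22650, AT3G47650, AT2G35390, RAP74, AT1G06510, DAL1, AT4G16490, AT3G04650, AT4G27250, AT5G03370 and AT5G05400. Whether the pairs are technical repeats or separate growths was not tested.

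**Figure D2:**
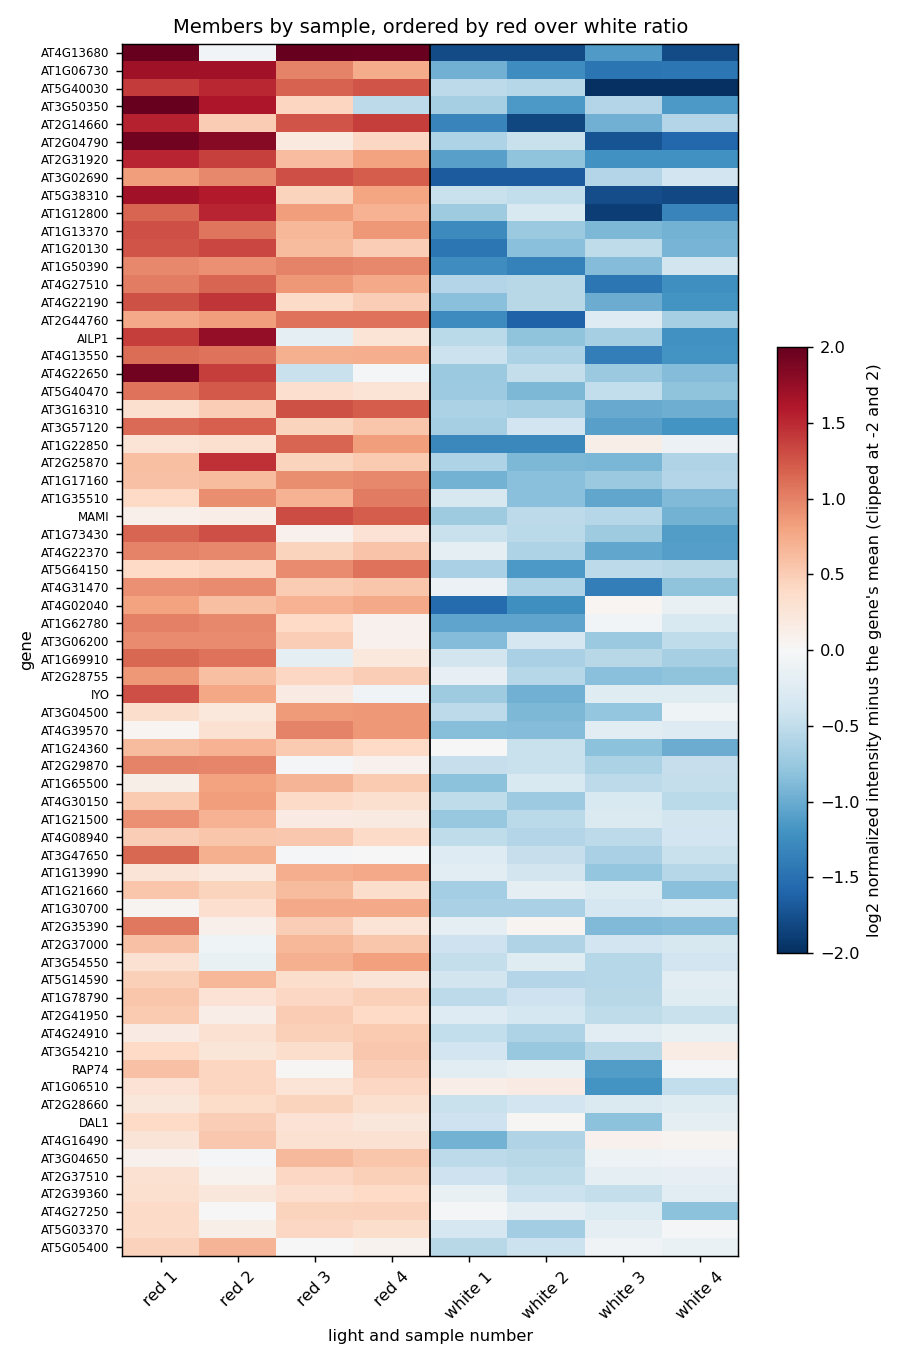
Log2 normalized intensity of the 68 members (rows, ordered by the ratio of red to white) in each of the 8 samples (columns), shown as the difference from the gene's mean over the 8 samples, with colours clipped at -2 and 2. The left 4 columns lie above the right 4 in each row, as the rule requires, and many rows differ between samples 1 and 2 and samples 3 and 4 of 1 light condition.

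Roles are given from general knowledge of these loci, since the files hold no descriptions. A role could be stated for 44 members. They comprise 9 kinases, 2 other transferases, 4 proteins of translation and RNA binding, 2 transporters or channels, 4 hydrolases, 5 oxidoreductases, 5 proteins of DNA, chromatin and transcription, and 13 others. The other 24 members are named without a role. How often each role occurs among the other probes in the window was not counted, so these counts cannot show whether any role is frequent among members.

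The kinases held some of the members with the largest red over white ratios, from 1.55 to 6.07. Among them 3 genes belong to the pfkB family, whose members phosphorylate sugars and nucleosides. AT1G06730 had normalized intensities of 2.58, 2.54, 1.58 and 1.33 in red samples 1 to 4 and of 0.406, 0.336, 0.289 and 0.291 in white samples 1 to 4. The red samples 1 and 2 were higher than red samples 3 and 4, and the lowest red value was 3.26 times the highest white one. AT1G50390 had normalized intensities of 1.35, 1.31, 1.39 and 1.35 in red samples 1 to 4 and of 0.292, 0.274, 0.381 and 0.539 in white samples 1 to 4. Its red samples were nearly level, and the highest white value, in sample 4, was well below them. The third, AT1G17160, had means of 2.03 ± 0.275 in red and 0.687 ± 0.0725 in white (SD, n = 4 each), with a log2 fold change of 1.53 in samples 1 and 2 and 1.59 in samples 3 and 4, nearly the same in both sets. The fitted log2 fold changes of the 3 genes were 2.56 ± 0.28, 1.92 ± 0.25 and 1.56 ± 0.19 (SE), in that order. Here and below, the SE comes from the fit without a block, which takes the samples of a light as independent despite their pairs.

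The protein kinase genes were AT5G40030, AT3G57120, AT1G69910 and AT2G39360. AT5G40030 had normalized intensities of 1.26, 1.36, 1.08 and 1.14 in red samples 1 to 4 and of 0.333, 0.320, 0.111 and 0.108 in white samples 1 to 4. Its red samples were close together, and its white samples 3 and 4 were about a factor of 3 below white samples 1 and 2. Samples 1 and 2 gave AT5G40030 a log2 fold change of 1.91, and samples 3 and 4 gave 3.5. AT3G57120 had means of 0.401 ± 0.104 in red and 0.127 ± 0.0332 in white, and AT1G69910 had means of 0.269 ± 0.114 in red and 0.115 ± 0.0110 in white (SD, n = 4 each). For AT1G69910 the groups overlapped on the deposited scale. The ratio was 1.55 for AT2G39360, the brightest member. Nucleotide metabolism was represented by AT3G06200, a guanylate kinase, with a ratio of 2.39, and by AT2G35390, which encodes the phosphoribosyl diphosphate synthase PRS1, with a ratio of 1.92. Red sample 1 of AT2G35390 had 0.817, above 0.423 to 0.554 in the other red samples, and its lowest red value was only 1.04 times its highest white value.

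In plastid gene expression the member with the highest ratio was AT1G12800, which encodes a plastid protein with S1 RNA-binding domains. AT1G12800 had normalized intensities of 1.5, 1.93, 1.20 and 1.08 in red samples 1 to 4 and of 0.411, 0.545, 0.183 and 0.270 in white samples 1 to 4. All red values lay at least a factor of 1.99 above the white values, and the fitted log2 fold change was 2.10 ± 0.36 (SE). A list of 23 genes of the plastid transcription machinery, among them its sigma factors and the proteins associated with the plastid-encoded polymerase, was measured by 1 probe of a single gene, which was that of AT1G12800. The list therefore gives no view of that machinery. AT3G54210, which encodes the plastid ribosomal protein L17, had normalized intensities of 0.499, 0.446, 0.486 and 0.551 in red samples 1 to 4 and of 0.292, 0.223, 0.259 and 0.421 in white samples 1 to 4. Its white sample 4 was close to the red values, its ratio was 1.66, and its groups overlapped on the deposited scale. AT3G04500 and AT2G37510 encode proteins with an RNA recognition motif. AT3G04500 had normalized intensities of 0.489, 0.445, 0.690 and 0.701 in red samples 1 to 4 and of 0.268, 0.205, 0.226 and 0.363 in white samples 1 to 4. Here red samples 3 and 4 were the high ones, and the groups overlapped on the deposited scale. AT2G37510 had means of 0.757 ± 0.0899 in red and 0.488 ± 0.0570 in white (SD, n = 4 each). Its groups also overlapped as deposited.

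The 2 other transferases had ratios of 2.89 and 2.72. AT1G35510, of the O-fucosyltransferase family, had normalized intensities of 0.205, 0.297, 0.252 and 0.321 in red samples 1 to 4 and of 0.125, 0.0870, 0.0761 and 0.0844 in white samples 1 to 4. AT5G64150, of a methyltransferase family, had normalized intensities of 0.348, 0.357, 0.512 and 0.562 in red samples 1 to 4 and of 0.169, 0.119, 0.184 and 0.181 in white samples 1 to 4. In both genes every red value was at least a factor of 1.64 above every white value.

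Of the membrane proteins, AT3G02690 belongs to the EamA family of small-molecule transporters. AT3G02690 had normalized intensities of 0.406, 0.439, 0.552 and 0.524 in red samples 1 to 4 and of 0.0372, 0.0518, 0.151 and 0.174 in white samples 1 to 4. White samples 1 and 2 were at or below the floor, and white samples 3 and 4 were higher but still below all red samples. AT2G29870, an aquaporin-related gene, had normalized intensities of 1.07, 1.06, 0.527 and 0.573 in red samples 1 to 4 and of 0.392, 0.398, 0.351 and 0.395 in white samples 1 to 4. Its red samples 1 and 2 were about a factor of 2 above red samples 3 and 4. AT1G73430 encodes a homologue of COG3, a subunit of the tethering complex of the Golgi apparatus, and had means of 0.793 ± 0.320 in red and 0.285 ± 0.0545 in white (SD, n = 4 each). AT3G16310, a homologue of the nuclear pore protein NUP35, had normalized intensities of 0.877, 0.991, 1.70 and 1.63 in red samples 1 to 4 and of 0.456, 0.447, 0.350 and 0.357 in white samples 1 to 4. It showed the opposite order within red light, with samples 3 and 4 above samples 1 and 2. MAMI, named for a membrane-associated protein induced by mannitol, shared that order, with 0.549, 0.559, 1.26 and 1.18 in red samples 1 to 4 and white values from 0.264 to 0.356.

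The hydrolases included AT4G13550, which encodes the plastid lipase HIL1, known to act on galactolipids in heat. AT4G13550 had normalized intensities of 1.73, 1.69, 1.30 and 1.32 in red samples 1 to 4 and of 0.587, 0.512, 0.304 and 0.346 in white samples 1 to 4. Its red and white groups were separated by a factor of 2.21, and its fitted log2 fold change was 1.83 ± 0.27 (SE). AT1G20130, of the GDSL esterase and lipase family, had normalized intensities of 0.464, 0.491, 0.303 and 0.272 in red samples 1 to 4 and of 0.0546, 0.109, 0.137 and 0.102 in white samples 1 to 4. White sample 1 was at the floor. AT2G25870, which encodes a haloacid dehalogenase-like protein, had normalized intensities of 0.598, 1.09, 0.540 and 0.566 in red samples 1 to 4 and of 0.256, 0.211, 0.211 and 0.260 in white samples 1 to 4. Red sample 2 stood apart at about a factor of 2 above the other red samples.

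The 5 oxidoreductases had lower ratios, from 1.55 to 2.12. AT1G24360 encodes the ketoacyl-ACP reductase of plastid fatty acid synthesis. AT1G24360 had normalized intensities of 0.350, 0.368, 0.326 and 0.299 in red samples 1 to 4 and of 0.226, 0.165, 0.128 and 0.114 in white samples 1 to 4. Its red samples were close together and its white samples formed a higher pair, samples 1 and 2, and a lower pair, samples 3 and 4. AT5G14590, an NADP-dependent isocitrate dehydrogenase, had normalized intensities of 0.507, 0.578, 0.465 and 0.438 in red samples 1 to 4 and of 0.285, 0.245, 0.247 and 0.314 in white samples 1 to 4. Each light had a narrow spread. AT1G30700, of the berberine bridge enzyme-like family, had normalized intensities of 0.621, 0.749, 1.0 and 1.01 in red samples 1 to 4 and of 0.381, 0.379, 0.471 and 0.491 in white samples 1 to 4. Its samples 3 and 4 were the higher ones in both lights. AT3G04650 and AT4G27250, which encode proteins of nucleotide-cofactor-binding families, had ratios of 1.56 and 1.55, and the limma fit across all probes called neither, while with the replicate block it called AT3G04650 (adjusted p = 0.0402 against 0.0977 without it).

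Among genes of DNA, chromatin and transcription, AT1G13370, a histone H3 gene, had the highest ratio. AT1G13370 had normalized intensities of 0.645, 0.553, 0.418 and 0.481 in red samples 1 to 4 and of 0.109, 0.157, 0.141 and 0.137 in white samples 1 to 4. The white values were close together, and the lowest red value was 2.66 times the highest white one. Histone H3 is encoded by several genes that are nearly alike in sequence, and the probe sequence was not used here, so that the signal of relatives cannot be told apart from it. IYO, or MINIYO, which encodes a partner of RNA polymerase II known for its part in the onset of cell differentiation, had normalized intensities of 0.543, 0.380, 0.250 and 0.212 in red samples 1 to 4 and of 0.136, 0.114, 0.189 and 0.188 in white samples 1 to 4. Red sample 4 was only slightly above the highest white value, and the groups overlapped with median centring as well as on the scale as deposited. AT2G37000, a transcription factor gene of the TCP family, had normalized intensities of 0.467, 0.294, 0.495 and 0.459 in red samples 1 to 4 and of 0.234, 0.206, 0.239 and 0.248 in white samples 1 to 4. Red sample 2 was the low one. MHF2, or AT1G78790, encodes a histone-fold protein known for limiting meiotic crossovers, and had means of 0.504 ± 0.0384 in red and 0.277 ± 0.0279 in white (SD, n = 4 each). RAP74, the large subunit of the general transcription factor TFIIF, had a ratio of 1.65, with white sample 3 at 0.477 and the other white samples from 0.890 to 1.0. Its lowest red value was only 1.04 times its highest white value, and the limma fit without a block did not call it (adjusted p = 0.0862).

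Other members with a stated role included AT3G47650, the homologue of BSD2, a chaperone of Rubisco assembly. AT3G47650 had normalized intensities of 0.516, 0.382, 0.229 and 0.232 in red samples 1 to 4 and of 0.196, 0.169, 0.149 and 0.171 in white samples 1 to 4. Only red samples 1 and 2 lay far from the white values. AT1G21660 encodes an auxilin-related protein with a J domain, and had means of 0.351 ± 0.0297 in red and 0.179 ± 0.0374 in white (SD, n = 4 each). AILP1, an aluminium-induced protein homologue, had normalized intensities of 0.479, 0.625, 0.160 and 0.222 in red samples 1 to 4 and of 0.126, 0.105, 0.116 and 0.0794 in white samples 1 to 4. Red samples 1 and 2 were the high ones, and red sample 3 was near the white values. AT1G22850, of the SNARE-associated Golgi protein family, had normalized intensities of 0.210, 0.217, 0.390 and 0.310 in red samples 1 to 4 and of 0.00592, 0.00404, 0.189 and 0.162 in white samples 1 to 4. White samples 1 and 2 were near 0, while white samples 3 and 4 lay just below the lowest red value. The ratios of AT4G31470, AT4G39570, AT4G30150, AT2G28660 and AT4G16490 were 2.65, 2.17, 2.06, 1.60 and 1.56. In order, they encode a CAP-domain protein, a kelch-repeat protein, a homologue of the ribosome assembly factor Urb2, a protein with a heavy-metal-associated domain and a protein with armadillo repeats.

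**Figure D3:**
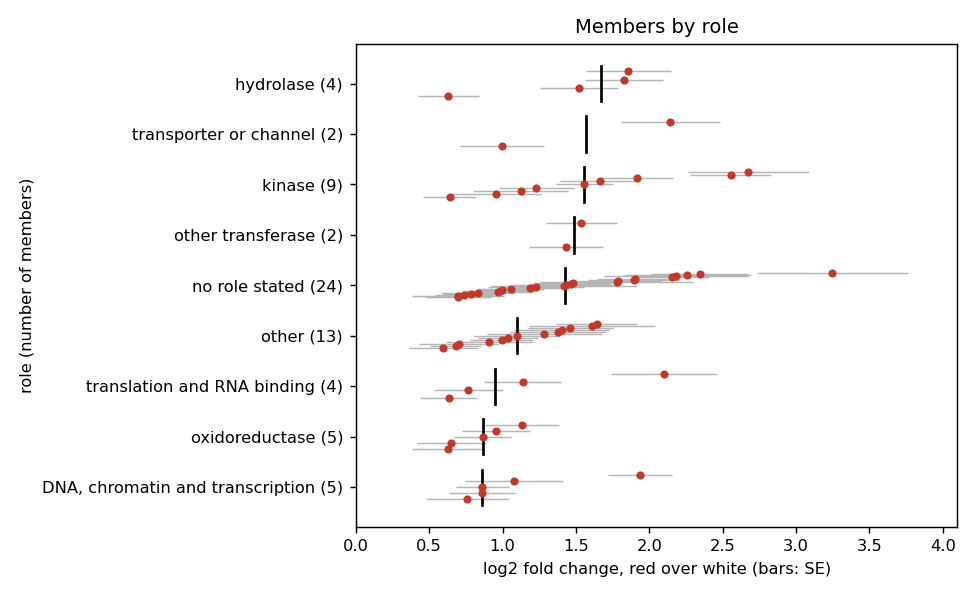
Log2 fold change of red over white light for each member (x axis, points, with bars for the SE of the limma fit) by role (y axis, with the number of members), where a black line is the median of the role. Kinases and hydrolases have medians of 1.56 and 1.67, against 0.87 for oxidoreductases and 0.86 for DNA, chromatin and transcription, and the roles overlap widely.

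The members without a stated role included the largest ratio, that of AT4G13680. AT4G13680 had normalized intensities of 1.43, 0.239, 1.01 and 0.975 in red samples 1 to 4 and of 0, 0, 0.112 and 0 in white samples 1 to 4. With 3 of 4 white values at 0, its ratio of 32.5 has little meaning as a size. AT3G50350 had normalized intensities of 0.654, 0.488, 0.215 and 0.111 in red samples 1 to 4 and of 0.101, 0.0475, 0.106 and 0.0377 in white samples 1 to 4. Red sample 4 nearly touched the white values, and 2 white samples were at the floor. AT2G14660 had normalized intensities of 0.907, 0.445, 0.749 and 0.815 in red samples 1 to 4 and of 0.126, 0.0883, 0.161 and 0.209 in white samples 1 to 4. Red sample 2 was the lowest of its red values, still 2.13 times the highest white one. AT2G04790 had normalized intensities of 1.63, 1.51, 0.487 and 0.572 in red samples 1 to 4 and of 0.278, 0.315, 0.129 and 0.144 in white samples 1 to 4. In AT2G04790 both lights had samples 1 and 2 above samples 3 and 4. AT2G31920 had normalized intensities of 0.475, 0.428, 0.253 and 0.287 in red samples 1 to 4 and of 0.0781, 0.0942, 0.0604 and 0.0655 in white samples 1 to 4. It was dim in both lights, with 2 white samples at the floor. AT5G38310 had normalized intensities of 0.888, 0.830, 0.377 and 0.479 in red samples 1 to 4 and of 0.202, 0.197, 0.0806 and 0.0790 in white samples 1 to 4. Like AT2G04790, AT5G38310 was higher in samples 1 and 2 than in samples 3 and 4 in both lights. The ratios of AT4G27510, AT4G22190 and AT2G44760 were 3.63, 3.57 and 3.5. The other members of this kind were AT4G22650, AT5G40470, AT4G22370, AT4G02040, AT1G62780, AT2G28755, AT1G65500, AT1G21500, AT4G08940, AT1G13990, AT3G54550, AT2G41950, AT4G24910, AT1G06510 and DAL1, with ratios from 1.59 to 3.32. The gene number given for DAL1 has no entry in the gene table, and its symbol is also that of another gene, so that no locus is given for it.

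Within a light condition, members split between the sample pairs in both directions. In white light, samples 3 and 4 both lay above samples 1 and 2 for 21 members, or 30.9%, beside 32.4% of the 463 probes of 1 gene in the window. The opposite held for 23 members, or 33.8%, beside 36.5%. In red light, samples 1 and 2 both lay above samples 3 and 4 for 33 members, or 48.5%, beside 37.4%, and the opposite held for 17 of the 68, beside 33.9%. The highest of the 8 values was in red sample 1 for 24 members, in red sample 2 for 20 and in red samples 3 and 4 for 12 each. No test was made of these shares.

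Taken set by set, the members had a median log2 fold change of 1.20 from samples 1 and 2 and of 1.17 from samples 3 and 4. It was larger in samples 1 and 2 for 32 members, or 47.1%, and in samples 3 and 4 for 36. Of the 461 probes of 1 gene in the window with both values, 55.3% had the larger one in samples 1 and 2. No test was made of these shares either. The values differed by 0.5 or less for 37 members and by over 1 for 10. AT3G50350, AILP1, AT4G22650, AT4G02040, AT1G62780 and IYO were the 6 with the larger value in samples 1 and 2. IYO had 1.72 in samples 1 and 2 and 0.31 in samples 3 and 4. AT5G40030, AT3G16310, MAMI and AT1G06510 were the 4 with the larger value in samples 3 and 4. MAMI had 0.66 in samples 1 and 2 and 2.10 in samples 3 and 4.

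**Figure D4:**
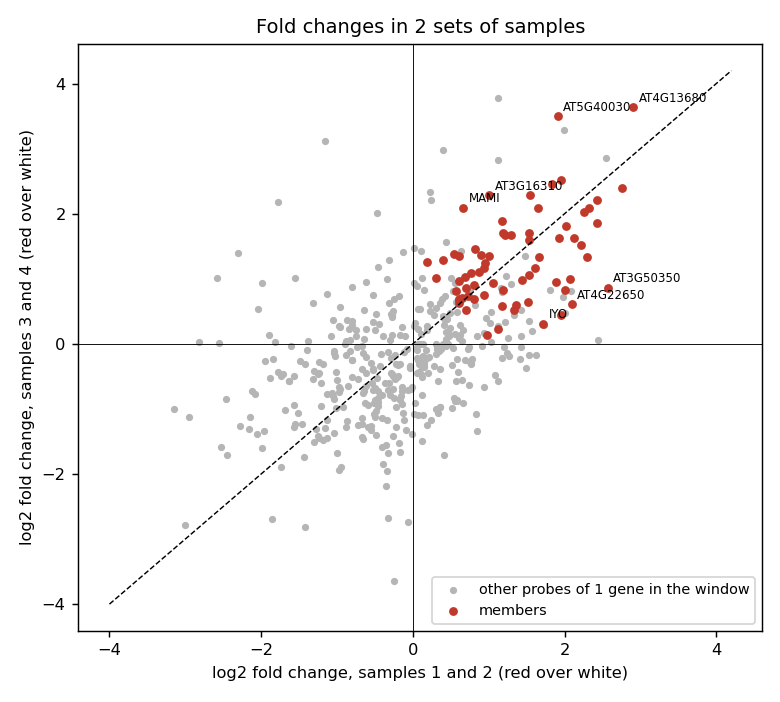
Log2 fold change of red over white light in samples 1 and 2 (x axis) and in samples 3 and 4 (y axis) for the probes of 1 gene in the intensity window, each point 1 probe, with members in red and the dashed line marking equal values. All members lie above 0 on both axes, as the rule requires, and members such as MAMI and IYO lie far from the dashed line.

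The scaling of the arrays bears on membership. Summed deposited intensity was higher in every red sample, from 2549 to 3196, than in any white sample, from 1691 to 2373, so that scaling and light cannot be told apart on the deposited scale. Over the probes fitted, however, the median log2 fold change as deposited was -0.14, red over white. For the members the median was 1.21 after quantile normalization and 1.07 on the deposited scale. The change in ratio differed with level, so the sizes given here depend partly on the normalization. AT5G40470, the dimmest member, had a ratio of 3.25 after normalization and 1.96 as deposited. Every member with a mean deposited intensity over 1 had a lower ratio after normalization, as AT2G39360 with 1.55 against 2.03. On the deposited scale the mean of red exceeded the mean of white for all 68 members. The groups stayed apart there for 47 of them, or 69.1%, beside 12.5% of the 463 probes. With arrays centred on their medians the groups stayed apart for 58 members, or 85.3%, beside 16.0%. Since the rule chose the members by separate groups in the same samples, these shares describe the members and support nothing. The 463 probes include those of the members. The 10 that overlapped with median centring were AT3G50350, AILP1, AT4G22650, AT1G22850, AT1G62780, AT1G69910, IYO, AT3G47650, AT1G06510 and AT5G03370. Of these, all except AT3G47650 also overlapped on the deposited scale. Among the 21 members that overlapped as deposited, the rest were AT3G04500, AT4G39570, AT1G65500, AT1G30700, AT2G37000, AT3G54550, AT4G24910, AT3G54210, AT2G28660, AT4G16490, AT3G04650 and AT2G37510.

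A measurement that the rule did not use comes from other probes annotated to a member. There were 6, of which 1 is paired with AT2G25870 alone and 5 are paired with a member and with 1 or 2 further genes. Of the 6, 1 had a positive log2 fold change, red over white, and 5 a negative one, while the members' own probes were all positive by the rule. Among the negative values, that of the AILP1 probe rests on a single white sample above the floor. The limma fit across all probes called the AT1G12800 probe higher in red (adjusted p = 0.0244) and the AT1G22850 probe lower (adjusted p = 0.0316). It called none of the others, and with each pair as a random block it called neither of these (adjusted p = 0.251 and 0.170). The probes of several genes may read any of them.

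The probe with a positive value is annotated to AT1G12800 and to AT3G23700, which also encodes an S1-domain protein of the plastid. It had normalized intensities of 0.528, 0.506, 0.621 and 0.579 in red samples 1 to 4 and of 0.2, 0.156, 0.252 and 0.427 in white samples 1 to 4. Every red value lay above every white value after normalization, though on the deposited scale white sample 4, at 0.489, lay above red samples 1 and 2, at 0.456 and 0.436. The log2 fold change was 1.21 ± 0.31 (SE), against 2.10 ± 0.36 for the gene's own probe. The second probe of AT2G25870 had normalized intensities of 0.273, 0.263, 0.254 and 0.403 in red samples 1 to 4 and of 0.289, 0.320, 0.343 and 0.447 in white samples 1 to 4. The groups overlapped, the log2 fold change was -0.24 ± 0.24, and the probe that made AT2G25870 a member had 1.52 ± 0.27. AT2G25870 thus differed between its 2 probes, and its place among the members rests on 1 of them.

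The probe shared by AT1G35510, AT1G14970 and AT2G01480 had normalized intensities of 0.649, 0.667, 0.843 and 0.772 in red samples 1 to 4 and of 1.01, 1.05, 1.22 and 1.11 in white samples 1 to 4. All its white values were above all its red values, opposite to the own probe of AT1G35510, but its groups overlapped on the deposited scale. Its log2 fold change was -0.59 ± 0.19. The probe shared by AT1G22850, AT1G03260 and AT5G19070 had normalized intensities of 0.0778, 0.0535, 0.0629 and 0.120 in red samples 1 to 4 and of 0.548, 0.603, 0.133 and 0.181 in white samples 1 to 4. It too had all white values above all red values, and its white samples 1 and 2 were the high ones, where the own probe of AT1G22850 was near 0. Its log2 fold change was -1.85 ± 0.51, with red samples 2 and 3 below the floor. As deposited, all its white values were also above all its red values. The probe shared by AT2G37510, AT1G73530 and AT5G54580 had a log2 fold change of -0.48 ± 0.26 with overlapping groups. The probe shared by AILP1, AT5G43830 and AT3G22850 was at or below the floor in all 4 red samples and in 3 of 4 white samples. Its negative fold change therefore has little meaning.

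**Figure D5:**
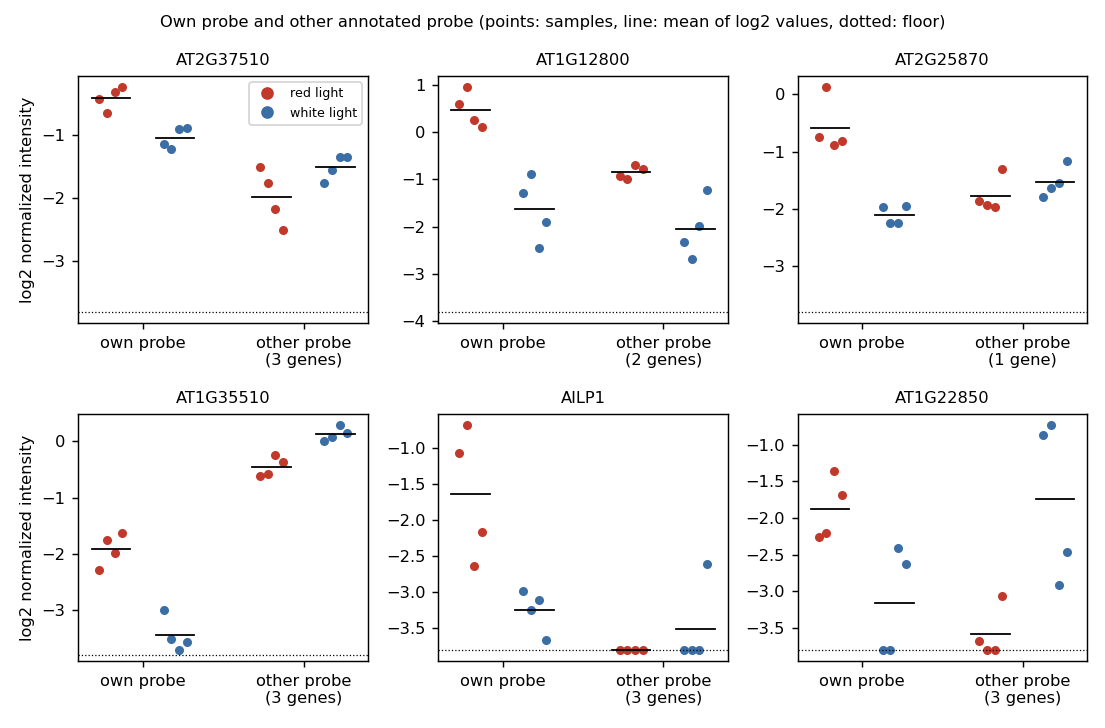
Log2 normalized intensity (y axis) in red and white light for the own probe and the other annotated probe of 6 members, with 1 point per sample, a line at the mean of the 4 log2 values and a dotted line at the floor. Only for AT1G12800 do both probes have all red samples above all white samples, and for AT1G35510 and AT1G22850 the other probe has them in the opposite order.

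The members were not neighbours in the genome, but only 691 genes had a probe of their own, and their spacing was not compared. In the order of protein-coding genes in TAIR10.1, which served here for names and gene order, the closest pair of members was AT2G28660 and AT2G28755, which were 10 genes apart. DAL1, without a locus, was not placed.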

How the data were processed

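The 8 deposited columns hold probe intensities on a linear scale, and how the authors corrected and scaled these intensity values is not stated by any source at hand, nor are a build or probe sequences. Summed intensity ranged from 2549 to 3196 in red and from 1691 to 2373 in white samples, and precision is limited by there being 4 arrays per light. Probes were named from GEO's platform annotation through gene numbers, and 67 of the 68 members matched the TAIR10.1 gene table. The members, lists and tests were chosen with earlier results of these data known.

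Columns were quantile-normalized, values below 0.0716, the highest of the 8 arrays' 5th percentiles of values above 0, were raised to it, and 407 probes at that floor throughout were left out. On log2 values, limma 3.58.1 (lmFit, then eBayes; R 4.3.3) gave two-sided p for red minus white, adjusted by Benjamini-Hochberg over 3032 probes. Such p-values reflect the spread between these samples alone, and that spread may be technical. Each SE given comes from this fit, which has no block and does not allow for the pairs of similar samples. Values in every sample are given for the 12 members with the largest ratio, for up to 3 members of each role by ratio, and for the 2 members and 2 genes on each side of the ratio of 1.5, and values of further members were added for their roles. Roles were to come from words in the gene table, which holds none, and were assigned by hand, and promoters and proteins were not analysed here.

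Same-numbered samples of the 2 lights, numbered in the labels, deviated together, with correlations of 0.239 to 0.320 against -0.206 to 0.107 for other numbers. The tie comes from the data, not from the labels. With the replicate number as a block, limma called 58 members (12.7% of all probes), against 57 without it (11.0%). Figures used Python 3.11.15 with pandas 2.3.3 and matplotlib 3.10.9.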

Additional observations from a re-analysis of the deposited data

Results flagged for a closer look

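Over the 68 members and the 2 genes just outside the ratio, 130 groups of 4 samples had all values above the floor, and 4 of them held a sample that was far from the other 3 on the log2 scale. For independent samples chance gives about 1 in 20, and the pairs of similar samples may change that rate. AT2G25870 had a normalized intensity of 1.09 in red sample 2, against 0.540 to 0.598 in the other red samples. AT2G37000 had 0.294 in red sample 2, against 0.459 to 0.495 in the other red samples. AT2G29870 had 0.351 in white sample 3, against 0.392 to 0.398 in the other white samples. RAP74 had 0.477 in white sample 3, against 0.890 to 1.0 in the other white samples.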

How the results depend on the processing

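The rule gave 68 genes, and 61 with median centring (56 of them members) or 49 on the deposited scale (46 members). It gave 44 with a ratio of 2 or more, 47 with a mean intensity above 0.3, 108 from samples 1 and 2 alone and 103 from samples 3 and 4 alone, where fewer samples make separate groups easier to reach. Leaving out 1 sample gave 67 to 75 genes. The median log2 fold change of the members, 1.21, was 1.0 with the floor at the 20th percentile and 0.90 with an offset of 0.1, both of which shrink changes of dim probes by construction, and 1.14 to 1.27 without 1 sample. The limma fit called 57 members (11.0% of all probes higher), 14 with pairs as a random block (2.34%), 58 with the replicate block (12.7%), 44 on the deposited scale (9.69%) and 39 to 49 without 1 sample (7.97% to 9.77%). Of 28 named members called, 9 were also called with pairs as a random block. Of 512 values of 32 single genes under 16 other alternatives, which leave out that block, none changed sign, 74 no longer passed the fit and 6 newly passed. After quantile normalization these genes have all red values above all white values, so that most of the alternatives could not change the sign. The lack of a sign change therefore supports nothing. With the replicate block 3 members no longer passed, with limma adjusted p of 0.0650 for AT1G62780, 0.0896 for IYO and 0.0640 for AT3G54550. With it 4 newly passed, with 0.0391 for AT3G47650, 0.0367 for RAP74, 0.0402 for AT3G04650 and 0.0472 for AT5G03370. Intensities near the floor limit all members whose white samples lie there.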

Other observations

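Outside the intensity window, 17 further genes of a single probe met the same contrast, 11 below the window and 6 above it. Below it was FATB, which encodes the thioesterase that releases saturated fatty acids from the plastid synthase, with a mean deposited intensity of 0.0746. FATB had normalized intensities of 0.101, 0.0762, 0.129 and 0.145 in red samples 1 to 4 and of 0.0672, 0.0182, 0.0345 and 0.0299 in white samples 1 to 4. All 4 white values lay below the floor. With values raised to the floor its log2 fold change was 0.61 ± 0.24 (SE), and red and white overlapped both as deposited and after centring arrays on their medians. Above the window were AT4G19900, AT3G09080, AT4G29890 and AT4G32060, with ratios of 2.38, 2.90, 2.83 and 2.45, besides AT4G17070 and PSBW. AT3G09080 had normalized intensities of 7.23, 7.09, 9.44 and 9.65 in red samples 1 to 4 and of 1.69, 1.57, 4.39 and 3.87 in white samples 1 to 4. FATB and AT3G09080 were chosen for description after their values were seen. The limma fit across all probes called AT3G09080 (adjusted p = 0.0148) and not FATB (adjusted p = 0.0982). With each pair as a random block it did not call AT3G09080 (adjusted p = 0.0723). Since both genes were picked by the same contrast, these values support nothing.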
